A study of Mus musculus with 64 samples.

Results

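Ribosome biogenesis genes were followed through 6 time courses of macrophage activation on expression arrays. The 34 genes were taken by symbol from 18820 measured genes: those named Utp, Nop, Rrp or Noc followed by a digit, and those named Polr1 followed by a letter. Each was read from a probe set that carries its symbol alone, the brightest where a gene has several, which applied only to Polr1d. Another 2 probe sets carry a matching symbol together with other symbols and were not used. By role the 34 are 5 subunits of RNA polymerase I, 4 proteins of small nucleolar ribonucleoproteins (snoRNPs), 16 factors of small subunit assembly and 9 factors of large subunit assembly.

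Ribosome production starts in the nucleolus, where RNA polymerase I transcribes a long precursor RNA. SnoRNPs guide its chemical modification and its cutting, while assembly factors fold it, bind ribosomal proteins to it and lead the small and the large subunit towards export. It is among the costliest syntheses of a growing cell, and its genes are known targets of growth signals and of the transcription factor Myc. In bone marrow macrophages it accompanies growth driven by colony stimulating factor 1 (CSF1).

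The cells were macrophages grown from the femoral marrow of male mice of 7 to 8 weeks, of the strains BALB/c or C57BL/6, in CSF1 at 10000 U/ml, which was common to all groups. They were reseeded on day 6 and treated on day 7. BALB/c cells received interferon beta (IFN-beta, 10 U/ml), interferon gamma (IFN-gamma, 10 U/ml) or bacterial lipopolysaccharide (LPS, 5 ng/ml). The C57BL/6 courses were all of LPS, with a high (50 ng/ml), a middle (5 ng/ml) and a low (0.5 ng/ml) dose. Each course was sampled at 1, 2, 4, 8 and 24 h, and each strain has 1 untreated group at 0 h that its 3 courses share. Each of the 32 groups holds 2 arrays from separate wells, 64 arrays in all, so the p-values measure the spread between wells and say nothing of the spread between mice or preparations. No untreated wells of later times enter these comparisons: every change from 0 h includes time in culture.

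Of 9 macrophage markers, all lay above the 40th percentile of array values, from a mean log2 intensity of 9.09 for Mertk to 13.2 for Lyz2. Of the markers of other cells, 0 of 5 for dendritic cells, 0 of 2 for erythroid cells, 1 of 3 for B cells and 1 of 5 for T cells lay above it. For granulocytes 4 of 7 did (Mmp8 highest at 8.20), with a list mean per group between 4.30 and 5.66, and for fibroblasts 4 of 5 did (Pdgfrb highest at 6.03), with a list mean between 4.39 and 5.94. Their part in the results was not tested. Correlation between the arrays of a group lay between 0.992 and 0.998.

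Some arrays stood apart. Over probe sets without a gene, 11 arrays separated from the other 53, and they include both arrays of IFN-beta at 4 h, so the main results at that time are given with this array set as a covariate too. Others in BALB/c are the second arrays at 24 h of IFN-beta, 2 h of IFN-gamma, and 1 and 24 h of LPS. The first array at 4 h of IFN-gamma is another. In C57BL/6 the set holds the second arrays at 4 h of 50 ng/ml, 2 h of 5 ng/ml, and 1 and 24 h of 0.5 ng/ml. Between the sets, 23 of the 34 genes differed at an adjusted p under 0.05, as did 37.5% of all genes, with a median difference of 0.01 over the 34. The C57BL/6 arrays labelled 0 h also held transcripts known to follow LPS: Nos2, an inducible enzyme of macrophage activation, read 10.63 and 10.45 there, against 3.54 and 3.78 in BALB/c at 0 h and 4.41 and 4.56 in C57BL/6 after 1 h of LPS at 5 ng/ml. At 1 h of 50 ng/ml the first array read 10.17 and the second 5.34, and at 1 h of 0.5 ng/ml the first read 8.12 and the second 3.98. The main changes in C57BL/6 are therefore given from 1 h as well, and from 1 h without 5 arrays that stand apart in earlier results of these data. These are the first 1 h arrays at 50 and at 0.5 ng/ml, the second 24 h array at 5 ng/ml in C57BL/6, and the first 2 h and second 4 h array of IFN-gamma. In RNA from whole cultures, fewer cells of a type and less RNA per cell cannot be told apart.

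Values are log2 of the deposited intensity, differences are on that log2 scale with their standard error (SE), and each group mean rests on 2 arrays. Unless said otherwise an adjusted p is that of limma's moderated test at the time named, adjusted over all 18820 genes (Benjamini-Hochberg), and rose and fell stand for an adjusted p under 0.05 in it. A stricter call asked for an adjusted p under 0.05 in the test over all times of a comparison and a change of at least 1 at some time.

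Promoter sequence was matched for 29 of the 34 genes among 27025 genes with a window of 250 bases before to 50 bases after the RefSeq start (GRCm38.p6). The windows were searched on both strands for CACGTG, the E-box that Myc and other factors can bind, for CCGGAAG, a core that ETS family factors can bind, and for TATAAA. The 29 genes have 35 windows, and a gene was counted where any of its windows held the letters. CACGTG stood in 6 of the 29 genes (20.7%), Nop2, Rrp7a, Utp18, Utp20, Utp25 and Utp4, and in 8.09% of all genes with a window. CCGGAAG stood in 10 of the 29 (34.5%), against 9.93% of all genes with a window, and TATAAA in 1, Rrp36 (3.45%, against 15.7%). Only Nop2, Utp18 and Utp4 held both of the first pair of motifs. Those 3 are printed because these genes also moved in the arrays, and Nop56 is printed as a gene that fell in every course and whose window holds neither. Each run holds 180 bases, 150 before and 30 after the start, 5′ to 3′ on the strand of the gene, and capitals mark the motifs (CTTCCGG is CCGGAAG read on the other strand).
The runs span Nop2 chr6:125131733-125131912 (plus strand), Utp18 chr11:93885737-93885916 (minus strand), Utp4 chr8:106893490-106893669 (plus strand) and Nop56 chr2:130274262-130274441 (plus strand).
Nop2: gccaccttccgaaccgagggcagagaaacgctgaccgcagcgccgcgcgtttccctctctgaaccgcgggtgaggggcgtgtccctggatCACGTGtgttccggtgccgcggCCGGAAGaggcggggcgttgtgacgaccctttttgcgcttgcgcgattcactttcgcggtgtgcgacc
Utp18: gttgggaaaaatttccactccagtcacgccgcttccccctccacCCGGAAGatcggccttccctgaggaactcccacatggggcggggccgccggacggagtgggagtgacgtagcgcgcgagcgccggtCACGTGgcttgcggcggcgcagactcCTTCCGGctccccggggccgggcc
Utp4: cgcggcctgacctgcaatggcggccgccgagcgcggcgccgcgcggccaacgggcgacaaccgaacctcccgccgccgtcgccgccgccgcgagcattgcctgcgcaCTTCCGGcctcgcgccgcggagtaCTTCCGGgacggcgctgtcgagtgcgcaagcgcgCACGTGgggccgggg
Nop56: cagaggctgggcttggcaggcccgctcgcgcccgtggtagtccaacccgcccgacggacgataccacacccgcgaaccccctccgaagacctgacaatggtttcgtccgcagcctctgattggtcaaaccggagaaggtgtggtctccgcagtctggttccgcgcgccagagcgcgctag
Counted from the start, the E-box of Nop2 begins at position -60 and its ETS core at -38. The E-box of Utp18 begins at -20 and that of Utp4 at 16, just past the start. A match describes the letters only.

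The 34 genes were well measured and differed in how far they moved. Their mean log2 level ran from 5.69 for Utp3 to 10.3 for Rrp1, from the 50.9th to the 92.7th percentile of all genes, and all 34 passed the filter on dim probe sets, a mean above the 40th percentile. The range of the 32 group means had a median of 1.12 over the 34 genes and 0.82 over all genes. It was narrowest for Rrp1 (0.37) and widest for Rrp1b (2.63), a nucleolar paralogue of Rrp1 that takes part in large subunit assembly. The median range was 1.45 for the snoRNP proteins, 1.20 for the small subunit factors, 0.93 for the large subunit factors and 0.82 for the polymerase subunits.

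The lowest levels gathered in few groups. Of the 34 genes, 15 had their lowest group mean in C57BL/6 cells at 8 h of LPS at 50 ng/ml, 8 in BALB/c cells at 4 h of IFN-beta and 4 at 8 h of IFN-beta. Both 4 h arrays of IFN-beta belong to the set of 11, and these group means are given without it as a covariate. The 8 genes lowest there all read lower in that set, from -0.02 for Nop16 to -0.40 for Rrp9. With the set as a covariate the 4 h change of Rrp9 went from -0.42 to -0.02. That of Rrp7a went from -0.31 to -0.06, and that of Nop16 from -0.59 to -0.57. The share of all genes lowest in these groups was not counted. The highest levels were spread over 18 groups, with 8 genes highest at 1 h of LPS at 0.5 ng/ml. In the test over all times, by adjusted p alone, 24 of the 34 genes passed with IFN-beta (37.4% of all genes), 13 with IFN-gamma (28.9%) and 24 with LPS in BALB/c (47.7%). In C57BL/6 27 passed at 50 ng/ml (46.4%), 26 at 5 ng/ml (46.4%) and 22 at 0.5 ng/ml (40.1%). Of the 34 genes, 7 passed in all 6 courses (Polr1a, Polr1b, Nop56, Nop9, Noc4l, Rrp12 and Rrp1b) and 1, Rrp1, passed in none. The share of all genes that passed in all 6 or in none was not counted. The courses of a strain share their 0 h arrays.

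**Figure D1:**
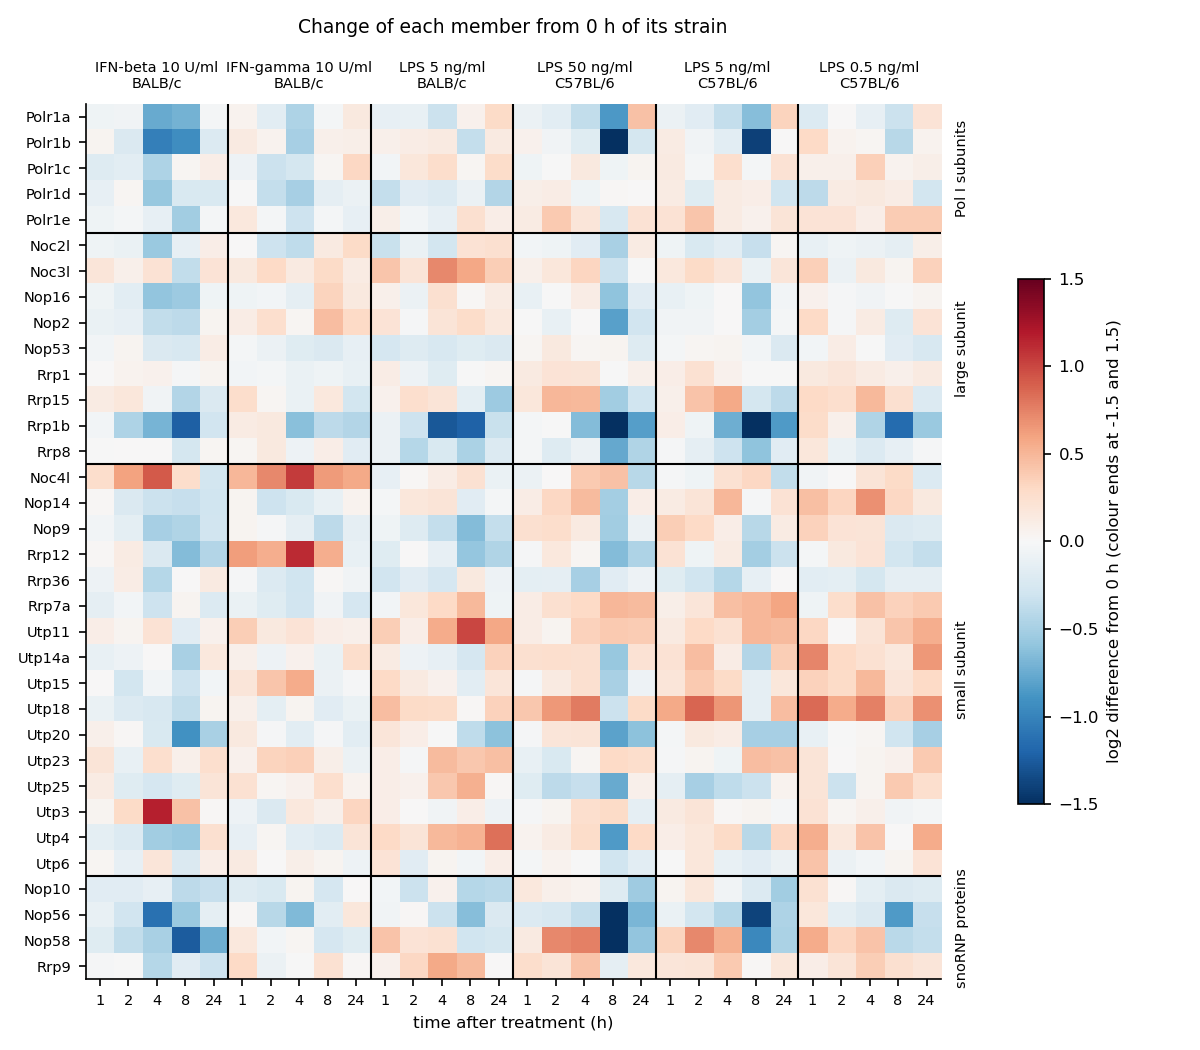
Change from 0 h (log2) of each of the 34 ribosome biogenesis genes (rows, ordered by role) at each time of the 6 courses (columns), from 2 arrays a group; blue is lower and red is higher than 0 h. The columns for 8 h of LPS at 50 and 5 ng/ml in C57BL/6 and for 4 and 8 h of IFN-beta hold the most blue.

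Most of these genes were lower at 8 h of LPS at 50 ng/ml in C57BL/6 macrophages than at 0 h. At that time 20 of the 34 genes fell and 3 rose, where 19.1% of all genes fell and 13.1% rose, and the median of the 34 was -0.49. Under the stricter call 4 genes fell and 0 rose (background 8.73% and 6.26%): Rrp1b, Nop56, Nop58 and Polr1b. At 1 h limma's test called 0 in either direction (background 0.77% higher and 0.648% lower; 2 higher and 0 lower at an unadjusted p under 0.05), and at 4 h 6 had risen and 4 had fallen (background 6.93% and 8.98%).

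Among the polymerase subunits the 2 largest fell. Polr1b, the second largest subunit of RNA polymerase I, read 8.48 and 8.55 at 0 h and 6.90 and 6.98 at 8 h of 50 ng/ml. Its groups lay far apart, and it fell by 1.58 (SE 0.14, adjusted p = 1.9e-12), or 2.98-fold. Polr1a, the largest subunit, read 8.45 and 8.37 at 0 h, 7.54 and 7.57 at 8 h, and 8.85 on both arrays at 24 h. It fell by 0.86 at 8 h and at 24 h was above 0 h by 0.44 (adjusted p = 0.00068). Polr1c and Polr1d, which RNA polymerase III also uses, and Polr1e did not pass the test at 8 h.

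Of the snoRNP proteins, the pair that forms the core of the box C/D particles, which guide methylation of ribosomal RNA, fell. Nop56 read 10.24 and 10.21 at 0 h and 8.71 and 8.55 at 8 h of 50 ng/ml. The fall was 1.60 (SE 0.13, 3.03-fold, adjusted p = 3e-13), and the groups did not overlap. Nop58, its partner, moved both ways: it read 7.47 and 7.53 at 0 h, 8.13 and 8.38 at 4 h, and 5.90 and 5.97 at 8 h. It rose by 0.76 at 4 h (adjusted p = 0.0012) and stood 1.57 below 0 h at 8 h (difference -1.57, SE 0.17, adjusted p = 8.5e-10). Nop10, of the box H/ACA particles that guide pseudouridine formation, and Rrp9, of the U3 particle, did not pass at 8 h. The median of the 4 snoRNP proteins was -0.88, the lowest of the role groups.

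Small subunit factors split. Of 16, 9 fell and 3 rose at 8 h, with a median of -0.41. Those that fell were led by Utp4 (-0.84), a scaffold protein of the early small subunit precursor, Utp20 (-0.80), a large scaffold protein, and Utp25 (-0.76). Utp14a, an activator of a helicase of the small subunit precursor, differed by -0.57, Rrp12, an export factor, by -0.65, and Nop9, which binds the small subunit precursor, by -0.52. The 3 that rose were Rrp7a (0.50), Noc4l (0.44), a partner of Nop14, and Utp11 (0.39). Utp18, a subunit of another early scaffold complex, read 6.96 and 7.12 at 0 h, 7.76 and 7.88 at 4 h and 6.70 and 6.74 at 8 h. It was high early and back near its start by 8 h: it rose by 0.78 at 4 h (SE 0.14, adjusted p = 4.4e-05).

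The large subunit factors held the gene that fell most. Of 9, 7 fell at 8 h, with a median of -0.52. Rrp1b read 7.43 and 7.52 at 0 h, 6.69 and 6.95 at 4 h, 5.05 and 5.18 at 8 h, and 6.66 and 6.64 at 24 h. Each of these later pairs lay below both arrays of 0 h, and at 8 h the difference was -2.36 (SE 0.16, adjusted p = 4.5e-15), a 5.13-fold fall. Nop2, a methyltransferase of large subunit RNA, fell by 0.81, Rrp8, another methyltransferase of that RNA, by 0.76, Nop16 by 0.61 and Rrp15 by 0.52. Noc2l fell by 0.49 and Noc3l, its partner on the precursor, by 0.32. Rrp1 and Nop53, which brings the RNA exosome to the precursor, did not pass.

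Counted from 1 h in place of 0 h, 21 genes fell at 8 h of 50 ng/ml, with Rrp1b at -2.33, Nop56 at -1.39, Polr1b at -1.64 and Nop58 at -1.70, so that all 4 also met the size of the stricter call. Without the first 1 h array, on which Nos2 was high, and the other 4 that stand apart, 21 fell too, with these genes at -2.41, -1.41, -1.70 and -1.60. The share of all genes that fell was not counted from 1 h. The early rise of Utp18 was 0.37 from 1 h. At 24 h of 50 ng/ml 9 genes were still below 0 h and 3 above (background 15.1% and 13.8%), with Rrp1b at -0.82, Nop56 at -0.68, Utp20 at -0.61 and Nop58 at -0.59, and the median of the 34 was -0.08.

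**Figure D2:**
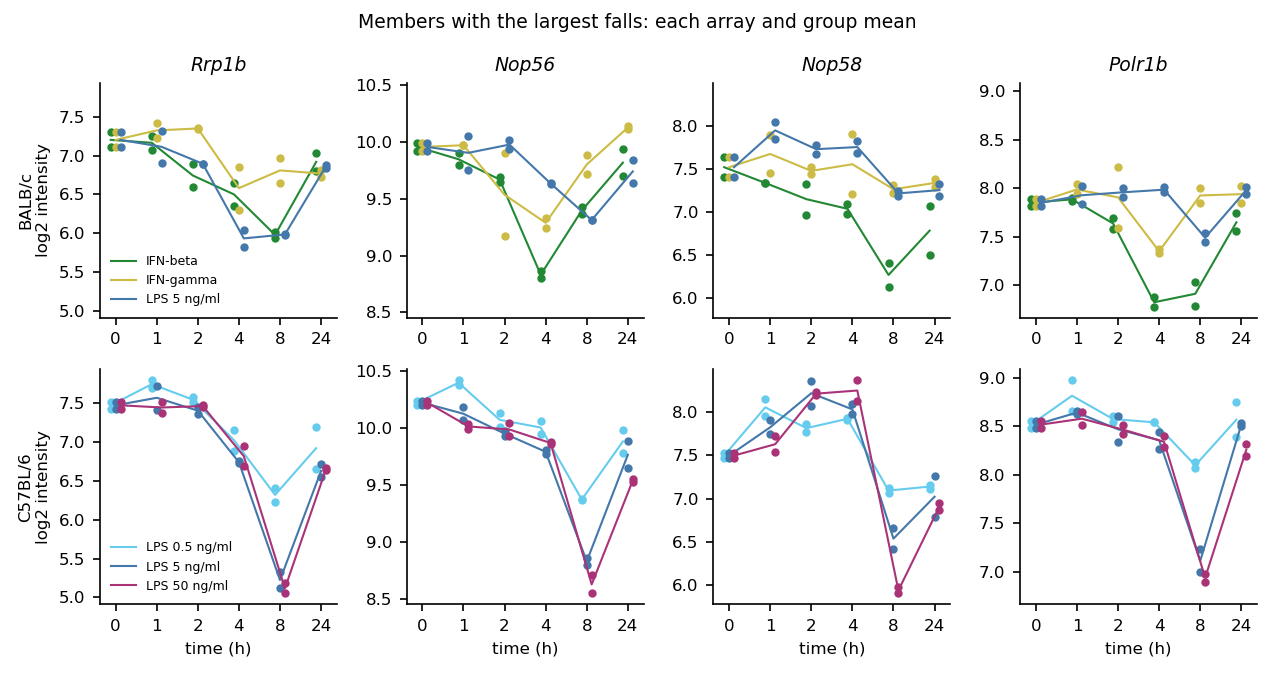
Log2 intensity of Rrp1b, Nop56, Nop58 and Polr1b on every array against time in hours, BALB/c courses above and C57BL/6 courses below; points are arrays and lines join means of 2. In C57BL/6 the 8 h arrays are lower at the high than at the low dose, with Rrp1b at 5.05 and 5.18 at 50 ng/ml and 6.23 and 6.41 at 0.5 ng/ml.

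At 5 ng/ml 15 of the 34 genes fell at 8 h and 4 rose (background 18.2% and 12.8%), with a median of -0.19. The stricter call took Nop56, Polr1b and Rrp1b, all lower (0 higher and 3 lower, background 5.88% and 8.41%). Rrp1b read 5.32 and 5.12 at 8 h, 2.25 below 0 h (difference -2.25, 4.76-fold), Polr1b 7.23 and 6.99 (difference -1.40), and Nop56 8.80 and 8.86 (difference -1.39). All 3 lay below both 0 h arrays, and their differences from 1 h were -2.35, -1.53 and -1.30.

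At 5 ng/ml the early rises included Utp18 and Nop58. Utp18 read 7.91 and 7.93 at 2 h, above both 0 h arrays, and rose by 0.88 (adjusted p = 1.5e-05), or by 0.31 from 1 h. Nop58 read 8.08 and 8.37 at 2 h, a rise of 0.72 (adjusted p = 0.0042), and 6.66 and 6.41 at 8 h, where it was -0.96 from 0 h. Rrp15, a factor of the large subunit precursor, rose by 0.56 at 4 h and Rrp7a by 0.59 at 24 h.

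At 0.5 ng/ml the balance was near even at 8 h. There 4 genes fell and 4 rose (background 11.8% and 8.77%), with a median of 0.02, and at an unadjusted p under 0.05 limma gave 8 lower and 7 higher. Rrp1b alone met the stricter call (0 higher and 1 lower, background 4.02% and 5.09%). Rrp1b read 6.23 and 6.41, a fall of 1.15 (2.23-fold), Nop56 read 9.37 on both arrays (difference -0.85), and Polr1b 8.13 and 8.07 (difference -0.42). All 3 were lower than at 0 h and higher than at the larger doses. Polr1a was the other gene that fell, by 0.32, while Nop58, at 7.12 and 7.06, did not pass the test. For the alternative counts that follow, the share of all genes was not counted. Counted from 1 h, 12 genes fell at 8 h in place of 4, 10 fell from 1 h without the 5 arrays that stand apart, 8 fell when only the 53 arrays of the larger set were used, and 2 fell without the first C57BL/6 0 h array or without the second 8 h array.

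At 1 h of 0.5 ng/ml 6 genes rose and 0 fell (background 2.45% and 1.37%): Utp18, Utp14a, Utp4, Nop14, Utp6 and Nop9, all of the small subunit. Utp18 read 8.03 and 7.76, above both 0 h arrays, and rose by 0.85 (adjusted p = 0.00015). Utp14a read 7.14 and 7.25 and rose by 0.73 (adjusted p = 0.0051). The second array of this group belongs to the set of 11, and with that set as a covariate the rises were 0.80 and 0.61. Nos2 was high on the first array, and without the 5 arrays that stand apart the rises were 0.72 and 0.79. At 4 h 6 genes rose and 0 fell (background 4.35% and 3.34%), among them Nop14, a scaffold protein bound to Noc4l, by 0.69. At 24 h 7 rose and 4 fell (background 13.8% and 13%).

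**Figure D3:**
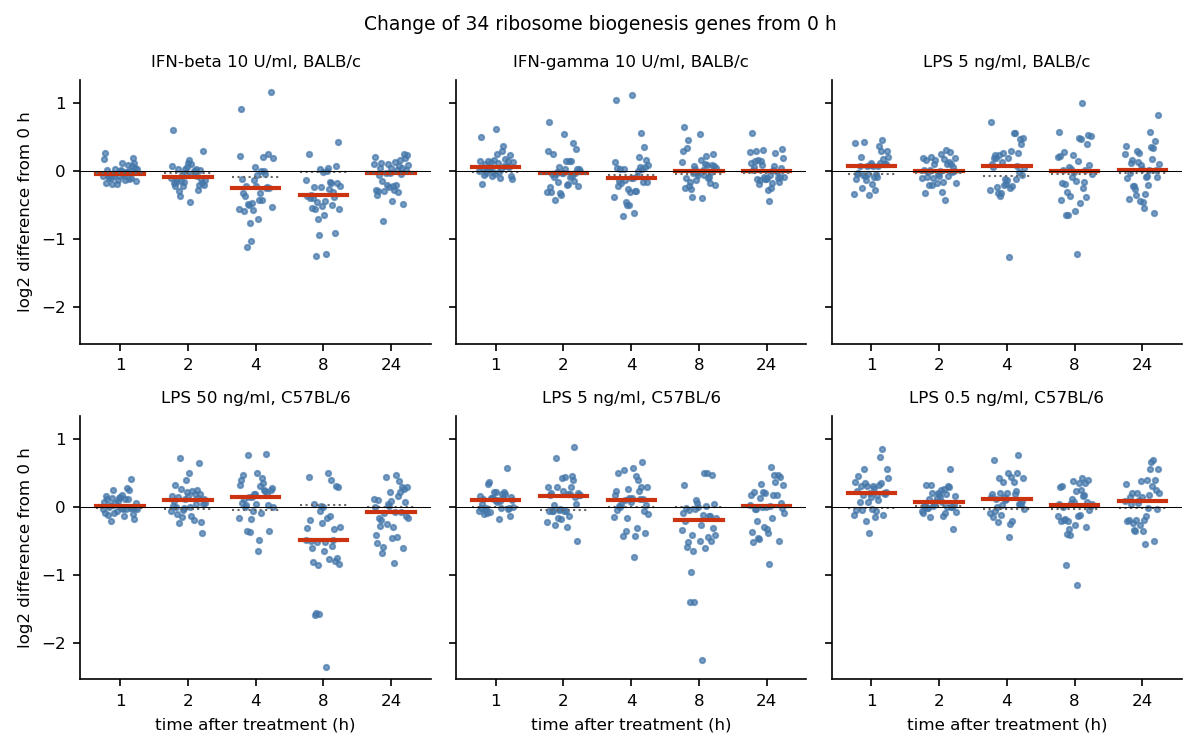
Change from 0 h (log2) of the 34 genes against time in hours, 1 panel per course. Points are genes (means of 2 arrays), red bars are their medians and dotted bars the medians of all genes. The red bar is lowest at 8 h of LPS at 50 ng/ml (-0.49) and at 8 h of IFN-beta (-0.36).

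The dose comparison at equal times uses no 0 h array. At 8 h 21 genes were lower at 50 than at 0.5 ng/ml and 1 was higher, where 10.3% of all genes were lower and 7.16% higher, and the median of the 34 was -0.44. The stricter call took Rrp1b, Nop58, Polr1b and Utp25, all lower (0 higher and 4 lower, background 2.01% and 1.71%). Rrp1b differed by -1.20 (SE 0.16, adjusted p = 4e-07), Nop58 by -1.16, Polr1b by -1.16 and Utp25 by -1.15 (adjusted p = 6.8e-11). Utp25, a small subunit factor, read 6.59 and 6.91 at 50 ng/ml, 7.12 and 7.26 at 5 ng/ml and 7.83 and 7.97 at 0.5 ng/ml, so that the 3 pairs lay in order of dose and did not overlap. At 1 h 4 genes were lower at 50 ng/ml (background 3.38%), at 4 h 1 (3.09%), at 24 h 1 (4.31%) and at 2 h 0 by limma (0.356%; also 0 lower, and 2 higher, at an unadjusted p under 0.05).

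Ordered over the 3 doses at 8 h, 25 of the 34 genes fell with each step from 0.5 to 5 to 50 ng/ml by group mean, and 5 rose with each step. Over all genes the shares were 22.8% and 23.9%. By role the median change at 8 h of 0.5, 5 and 50 ng/ml was -0.31, -0.59 and -0.88 for the snoRNP proteins, -0.12, -0.34 and -0.52 for the large subunit factors, 0.12, -0.13 and -0.41 for the small subunit factors and 0.05, -0.03 and -0.24 for the polymerase subunits. These 3 courses share the 0 h arrays, so the order between doses is that of the 8 h levels.

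**Figure D4:**
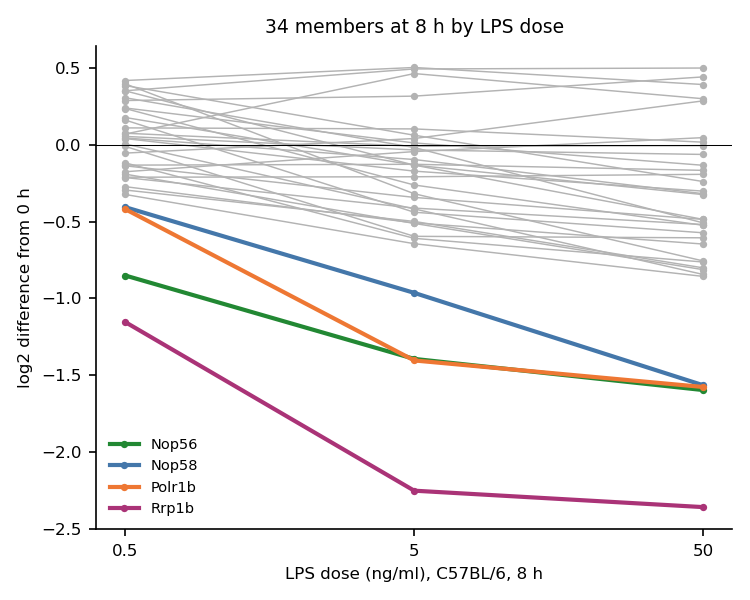
Change at 8 h (log2, C57BL/6, means of 2 arrays) of the 34 genes against LPS dose in ng/ml on a log axis, with 4 genes in colour. Most lines slope down: 25 of the 34 fell with each step of dose.

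In BALB/c cells, LPS at 5 ng/ml went with changes of these genes in both directions. At 8 h 8 of the 34 genes fell and 6 rose, where 21.1% of all genes fell and 13.7% rose, and the median was 0.00. Under the stricter call Utp11 was higher and Rrp1b lower (1 and 1, background 7.44% and 9.72%). Without the first 8 h array 5 genes fell at 8 h.

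Utp11, a component of the small subunit processome, read 8.04 and 7.93 at 0 h, 8.85 and 9.12 at 8 h and 8.34 and 8.79 at 24 h. Every treated array named here lay above 0 h, with a rise of 1.00 at 8 h (SE 0.15, adjusted p = 4.7e-07). That value sits at the edge of the stricter call: without the second BALB/c 0 h array or the second 8 h array it passed no longer, its range was 0.87 to 1.14, and from 1 h it was 0.63. Utp4 read 8.66 and 8.47 at 0 h, 9.08 and 9.09 at 8 h and 9.24 and 9.55 at 24 h. Its treated pairs lay above 0 h, and it rose by 0.83 at 24 h (adjusted p = 2.3e-06). The second 24 h array belongs to the set of 11, in which Utp4 read higher by 0.24 and Utp11 by 0.30. Their 24 h values are given without that set as a covariate. Noc3l, a large subunit factor, rose by 0.73 at 4 h.

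Rrp1b read 7.11 and 7.30 at 0 h, 5.82 and 6.05 at 4 h, 6.00 and 5.97 at 8 h and 6.85 and 6.89 at 24 h. It was lowest at 4 h, with a fall of 1.27 (SE 0.16, 2.41-fold, adjusted p = 4e-08). Nop56 read 9.92 and 9.99 at 0 h and 9.32 and 9.31 at 8 h, a fall of 0.64, and Nop9 fell by 0.65 at 8 h and Utp20 by 0.62 at 24 h. Polr1b read 7.81 and 7.89 at 0 h and 7.45 and 7.54 at 8 h, a difference of -0.36.

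Ribosome biogenesis genes were lower at 4 and 8 h of IFN-beta than at 0 h. At 4 h 14 genes fell and 2 rose (background 15.1% and 9.65%), with a median of -0.25, and at 8 h 17 fell and 2 rose (background 11.1% and 7.95%), with a median of -0.36. At 24 h 3 were below 0 h (background 5.97%), and the median was -0.03. The stricter call took Utp3 as higher and Nop56, Nop58, Polr1b and Rrp1b as lower (1 and 4, background 4.05% and 3.87%). Both 4 h arrays belong to the set of 11. With the set as a covariate 12 genes fell at 4 h, and in that model the share of all genes was not counted. The stricter call then took 4 genes, 2 higher and 2 lower. Nop56 (-0.99) and Polr1b (-0.78) missed the size asked for at 4 h, and Noc4l (1.02) met it. The count at 8 h was 10 without the first BALB/c 0 h array and 11 without the second 8 h array.

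Of the polymerase subunits 4 of 5 fell at 4 h, with a median of -0.57, and with the array set as a covariate 3 of 5 fell, with a median of -0.37. Polr1b read 6.88 and 6.78 at 4 h and 6.79 and 7.04 at 8 h, each below both 0 h arrays, and fell by 1.02 at 4 h (SE 0.14, adjusted p = 1.2e-07). Polr1a read 8.25 and 8.13 at 0 h and 7.41 and 7.46 at 4 h, a fall of 0.76. Polr1d fell by 0.57 and Polr1c by 0.47 at 4 h, and Polr1e by 0.52 at 8 h. With the covariate the 4 h differences were -0.78 for Polr1b, -0.61 for Polr1a, -0.37 for Polr1c and -0.35 for Polr1d, which no longer passed (adjusted p = 0.13).

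The snoRNP core proteins fell at different times. Nop56 read 8.86 and 8.80 at 4 h and 9.43 and 9.36 at 8 h. It was lowest at 4 h, with a fall of 1.12 (SE 0.13, adjusted p = 4.3e-09). Nop58 read 7.40 and 7.64 at 0 h and 6.13 and 6.41 at 8 h, a fall of 1.25 (SE 0.17, adjusted p = 3.2e-07), and at 24 h it was still -0.74 from 0 h. Rrp1b, of the large subunit, read 5.94 and 6.02 at 8 h and fell by 1.22 (adjusted p = 1.4e-07). Nop16 fell by 0.59 and Noc2l by 0.56 at 4 h, or by 0.57 and 0.33 with the covariate, and Utp20 fell by 0.91 and Rrp12 by 0.65 at 8 h.

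Against this direction, 2 small subunit factors rose. Utp3, the mouse counterpart of a yeast protein first named for gene silencing that binds the small subunit precursor, read 5.63 and 5.65 at 0 h, 6.72 and 6.89 at 4 h and 6.11 and 6.05 at 8 h. It rose by 1.16 at 4 h (SE 0.13, 2.24-fold, adjusted p = 4.7e-09), or 1.06 with the array set as a covariate. Noc4l read 8.86 and 8.73 at 0 h, 9.71 and 9.70 at 4 h and 8.51 and 8.53 at 24 h. It had risen by 0.60 at 2 h and by 0.92 at 4 h (SE 0.09, adjusted p = 3.4e-10), and at 24 h its arrays lay below those of 0 h.

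With IFN-gamma 2 genes rose past the stricter call, and most did not pass the test. At 4 h 7 fell and 3 rose (background 6.84% and 6.09%), at 8 h 2 fell and 4 rose (background 8.48% and 6.56%), and the median was -0.10 and 0.00. The stricter call took Noc4l and Rrp12, both higher (2 and 0, background 3.1% and 2.27%).

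Noc4l read 9.84 and 9.85 at 4 h of IFN-gamma and 9.36 and 9.35 at 24 h, above both 0 h arrays at each of these times. It rose by 1.05 at 4 h (SE 0.09, 2.07-fold, adjusted p = 2.5e-11). Rrp12 read 7.12 and 7.22 at 0 h, 7.76 and 7.83 at 1 h, 8.18 and 8.41 at 4 h and 7.80 and 7.64 at 8 h. It was highest at 4 h, with a rise of 1.12 (SE 0.16, 2.18-fold, adjusted p = 1.1e-06). The first 4 h array of this course is in the set of 11, and with the set as a covariate the rise of Rrp12 was 1.29. The 4 h arrays also differed in Nos2 (7.25 and 9.75) and in the cytokine Il6 (3.63 and 6.56). Without the second 4 h array and the other 4 that stand apart, Rrp12 rose by 1.01 and Noc4l by 1.05. Counted from 1 h neither gene met the stricter call, at 0.50 for Rrp12 and 0.55 for Noc4l. Without the second BALB/c 0 h array 1 of the 2 met it.

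The 7 genes that fell at 4 h of IFN-gamma included both large polymerase subunits, Nop56 and Rrp1b. The courses share their 0 h arrays, so the falls are given side by side with those of IFN-beta above. Nop56 read 9.24 and 9.33, a fall of 0.67, and Polr1b 7.33 and 7.37, a fall of 0.50. Rrp1b read 6.86 and 6.30, the widest pair among these, with a fall of 0.62 (adjusted p = 0.0058), and without the 5 arrays that stand apart the difference was -0.34. Polr1a fell by 0.46, and Utp15, of the same early complex as Utp4, rose by 0.56.

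**Figure D5:**
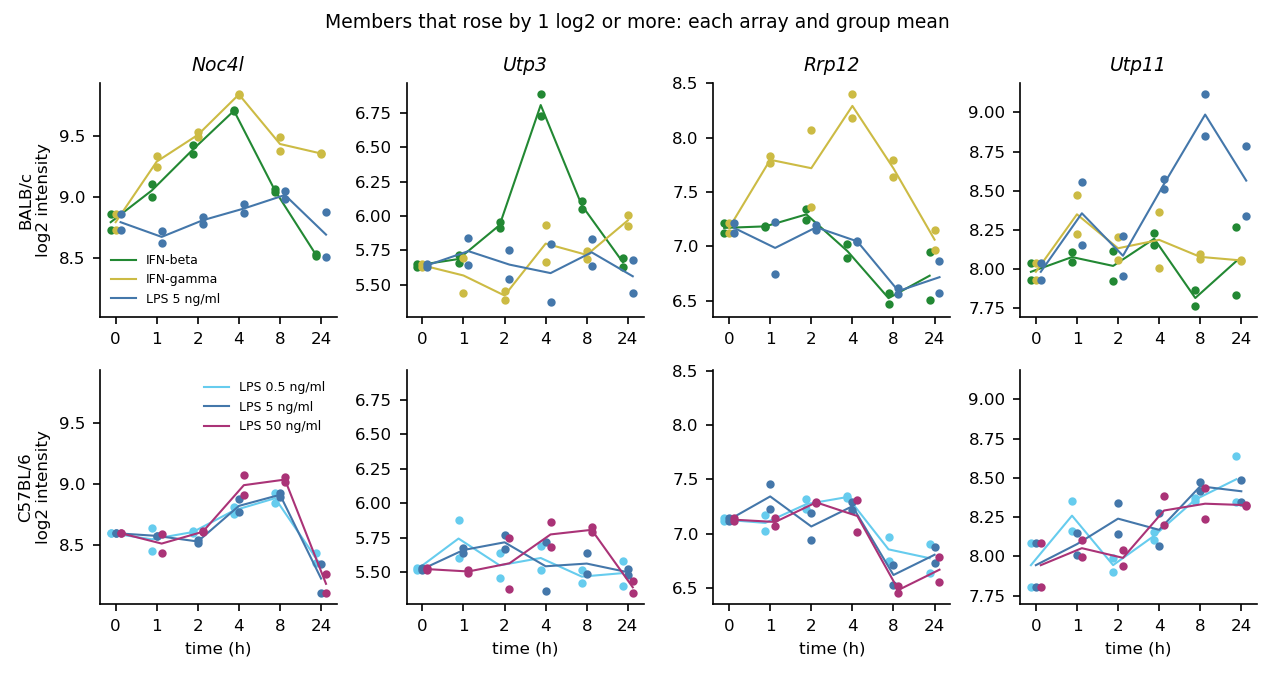
Log2 intensity of Noc4l, Utp3, Rrp12 and Utp11 on every array against time in hours, BALB/c courses above and C57BL/6 courses below; points are arrays and lines join means of 2. Utp3 is high at 4 h of IFN-beta (6.72 and 6.89), Rrp12 at 4 h of IFN-gamma (8.18 and 8.41), Noc4l with both interferons and Utp11 at 8 h of LPS in BALB/c (8.85 and 9.12).

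Set against each other at equal times, the interferons differed in more of these genes at 8 h than at other times. There 14 genes were lower with IFN-beta than with IFN-gamma and 0 higher (background 4.1% and 4.3%), 31 of 34 differences were below 0, and the median was -0.36. The stricter call took 1 gene as higher and 2 as lower (background 2.06% and 1.9%): Utp3 (1.01 at 4 h), Rrp12 (-1.34 at 4 h, SE 0.16, adjusted p = 4.3e-08) and Polr1b (-1.01 at 8 h). With the array set as a covariate Rrp12 was at -1.16, and Utp3 was at 0.95 and met that call no longer. In that model 19 genes were lower at 8 h, and the share of all genes was not counted. Noc4l, which rose with both, was lower with IFN-beta at 24 h (-0.84, adjusted p = 1.1e-08).

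IFN-beta against LPS at 5 ng/ml in BALB/c gave 15 genes lower and 0 higher at 8 h (background 9.88% and 15.2%), with a median of -0.26. The stricter call took Utp3 as higher and Polr1b, Utp11 and Utp4 as lower (1 and 3, background 8.06% and 6.19%). Utp11 read 7.87 and 7.76 at 8 h of IFN-beta against 8.85 and 9.12 with LPS (difference -1.17), and Utp4 7.93 and 8.08 against 9.08 and 9.09 (difference -1.08). Neither pair overlapped. Polr1b differed by -1.16 at 4 h, or -0.92 with the array set as a covariate. For Rrp1b, which fell in both courses, the difference at 4 h was 0.57 (adjusted p = 0.0076 at that time and 0.079 over all times), or 0.32 with the array set as a covariate (adjusted p = 0.14).

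IFN-gamma against LPS in BALB/c gave 4 genes lower and 9 higher at 8 h (background 11.2% and 16.6%), and Rrp12 alone met the stricter call (1 higher and 0 lower, background 7.51% and 6.09%), by 1.25 at 4 h. Rrp12 read 6.61 and 6.57 at 8 h of LPS and 6.58 and 6.47 at 8 h of IFN-beta, below 0 h in both, against 7.80 and 7.64 with IFN-gamma. Without the first BALB/c 8 h array of LPS 2 genes met the call.

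Between the strains, the arrays labelled 0 h differed in 2 of the 34 genes at an adjusted p under 0.05 (1 higher and 1 lower in BALB/c, background 5.49% and 4.09%), and by limma 0 met the stricter call (background 1.1% and 1.26%), with 5 higher and 5 lower at an unadjusted p under 0.05. Polr1b was lower in BALB/c by 0.67 (difference -0.67, SE 0.14, adjusted p = 0.00046), at 7.81 and 7.89 against 8.48 and 8.55. Nop9 was higher by 0.27 (adjusted p = 0.035). With any of these 4 arrays left out, 1 gene passed. Strain, preparation of the cells and the high Nos2 of the C57BL/6 0 h arrays cannot be told apart here.

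At 8 h of LPS at 5 ng/ml 14 genes were higher in BALB/c than in C57BL/6 and 0 lower (background 7.3% and 5.92%), with 28 of 34 differences above 0 and a median of 0.27, while by limma 0 met the stricter call in either direction (background 3.52% and 2.01%). Without the first BALB/c 8 h array 1 gene met it. By adjusted p alone 20 genes differed over all times, and 13 without the second BALB/c 8 h array or either C57BL/6 8 h array. The 14 became 9 without the first and 7 without the second BALB/c 8 h array, and 7 and 8 without the first and second C57BL/6 8 h array. Utp25 was higher by 0.88 (SE 0.10), at 7.92 and 8.21 against 7.12 and 7.26. Rrp1b was higher by 0.76, at 6.00 and 5.97 against 5.32 and 5.12, although at 4 h it was lower by 0.81. Utp4 was higher by 0.70, at 9.08 and 9.09 against 8.40 and 8.37.

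The change from 0 h to 8 h itself differed between strains for 10 genes, all with the value of BALB/c above that of C57BL/6 (0 below, background 2.84% and 2.56%), and 2 of these met the stricter call (2 and 0, background 3.27% and 1.4%). The change of Polr1b differed by 1.05 (SE 0.19, adjusted p = 0.0003) and that of Rrp1b by 1.03 (SE 0.23, adjusted p = 0.0029). Utp4 followed with 0.94 (adjusted p = 0.001), Utp25 with 0.85, Nop2 with 0.79 and Nop56 with 0.75. No gene met the stricter call without the second C57BL/6 8 h array, and 1 did without the second C57BL/6 0 h array. Counted from 1 h, the values for Polr1b and Rrp1b were 1.09 and 1.22.

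The 34 genes shared their profile only in part. Over 32 group means the median correlation of their 561 pairs was 0.21, with 132 pairs above 0.5 and 22 below -0.5. The closest pair was Nop16 and Nop2 (0.90), both of the large subunit, and the most opposed was Rrp8 and Rrp7a (-0.72). Set against the mean of the others, 18 genes were above 0.5, led by Nop58 (0.86), Nop2 (0.86) and Nop16 (0.83), and 7 were below 0: Noc4l, Polr1d, Rrp36, Rrp7a, Utp11, Utp23 and Utp3. These are descriptions over groups that share strain, time and arrays.

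Outside the 34, the genes whose 32 group means followed their mean most closely were Simc1 (0.90), Gnl3 (0.90), Ppan (0.90), Nob1 (0.90), Pinx1 (0.89), Fpgs (0.89), Wdr75 (0.89), Smad5 (0.89), Rsl1d1 (0.87) and Atad3a (0.87). Of these Gnl3, Pinx1 and Rsl1d1 are nucleolar proteins, Ppan is a large subunit factor, and Nob1 and Wdr75 act in small subunit production.

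Other genes of the pathway were read from lists. Of 9 measured initiation factors and cofactors of RNA polymerase I, 0 met the stricter call in any of the 13 comparisons by limma. By adjusted p alone over all times, 6 were lower and 1 higher at 50 ng/ml, where 46.4% of all genes passed in either direction. With IFN-beta 3 were lower and 3 higher, where 37.4% of all genes passed. The median of the 9 at 8 h was -0.14 with 50 ng/ml of LPS in C57BL/6 and -0.19 with IFN-beta. At 4 h of IFN-beta it was 0.25, with 2 lower and 1 higher (background 15.1% and 9.65%). Cd3eap, a polymerase I subunit without a Polr1 symbol, differed by -0.65 at 4 h of IFN-beta. Ubtf, which opens ribosomal DNA for transcription, differed by -0.59, while Ttf1, which ends transcription of ribosomal DNA, differed by 0.58 at 8 h. Subunits of the other polymerases were lower with IFN-beta too. By adjusted p alone over all times, 6 of 13 RNA polymerase II subunits were lower and 0 higher. Of 9 RNA polymerase III subunits 3 were lower and 1 higher. Their lowest medians in that course were -0.42 at 4 h and -0.30 at 8 h. Both 4 h arrays of IFN-beta belong to the set of 11, and these lists were not read with that set as a covariate.

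Other snoRNP proteins also fell: 5 of 9 at 8 h of 50 ng/ml (median -0.61), 4 at 5 ng/ml (-0.68), 2 at 0.5 ng/ml (-0.27) and 4 at 8 h of IFN-beta (-0.45). Of 28 further small subunit factors 13, 10, 1 and 14 fell in the same order, and of 38 large subunit factors 18, 12, 2 and 20. For these the medians were -0.27, -0.14, 0.11 and -0.43 and then -0.32, -0.19, 0.04 and -0.33. Of 12 exosome subunits, which trim the precursor, 5, 4, 0 and 5 fell. In the same order the background was 19.1%, 18.2%, 11.8% and 11.1%. At 0.5 ng/ml the fallen shares of the small subunit, large subunit and exosome lists lay below it.

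Ribosomal proteins, the products that the pathway assembles, had their lowest median at 24 h in each LPS course. The median of 63 was -0.02 at 8 h of 50 ng/ml in C57BL/6 and -0.30 at 24 h, when 33 of 63 had fallen (background 15.1%). It was -0.30 at 24 h of 5 ng/ml (25 fallen, background 14.2%) and -0.18 at 24 h of 0.5 ng/ml (17 fallen, background 13%). In BALB/c at 24 h of LPS the median was -0.24, with 25 fallen (background 17.4%). The 34 biogenesis genes had medians of -0.08, 0.00, 0.09 and 0.01 in those groups. With IFN-beta the ribosomal proteins were lowest at 8 h, as the 34 were, with a median of -0.17 and 1 fallen (background 11.1%). At 4 h the median was -0.15 with 17 fallen (background 15.1%), read without the array set as a covariate.

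Genes of the cell cycle moved further than the biogenesis genes, and their part in the results was not tested. The median of 20 cell cycle genes was -1.35 at 8 h of both 50 and 5 ng/ml in C57BL/6, -0.74 at 0.5 ng/ml, -1.94 in BALB/c with LPS and -0.91 with IFN-beta. At 24 h it was -3.68, -3.39, -3.10, -3.61 and -1.06 in the same order, when the medians of the 34 had returned to between -0.08 and 0.09. Of 12 measured genes of the Myc network 6 fell and 4 rose at 8 h of 50 ng/ml (background 19.1% and 13.1%), with a median of -0.37.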

How the data were processed

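Deposited values were 1 intensity per probe set and array, already summarised by the authors (Affymetrix Expression Console 1.1 per the submitters' processing notes; the normalisation method is not given in the sources used here). Array intensities ran from 2.49 to 17782 with medians of 25.6 to 29.0, and log2 was taken here of the deposited values with no pseudocount. Of 35556 probe sets, 21218 carried 1 symbol in GEO's platform annotation, 1881 carried several and 12457 had none; 21185 were matched to RefSeq by identifier. The brightest probe set per gene gave 18820 genes.

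A group-means model over all 64 arrays (limma 3.58.1, R 4.3.3; 32 residual degrees of freedom) gave a moderated F-test per comparison and moderated tests per time, Benjamini-Hochberg adjusted over all genes; the scripts were tested on simulated data. A share of genes called over all genes in the same test and direction is printed as background. It was counted in the main model only, and not under the alternatives listed below. The genes, lists and roles were chosen with earlier results of these data known. Named genes were, per course, the 4 largest rises and the 4 largest falls with both arrays beyond both 0 h arrays, and per other comparison the 3 largest each way, beside the widest range in each role. Genes named beyond that rule to account for all 34 were chosen after their values were seen.

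Alternatives were median centring, quantile normalisation, leaving out dim probe sets, averaging the probe sets of a gene, only the arrays compared, trended robust variances, the replicate number as a block, the array set as a covariate, only its larger set, leaving out 5 arrays that earlier results set apart, 1 h as the start, and leaving out each array. Starting from 1 h together with leaving out those 5 arrays was added after seeing the data. Over pairs of groups, same-numbered arrays did not in general deviate together (median correlation 0.0046, from -0.47 to 0.55, 46 of 496 pairs above 0.1). A median cannot exclude pairing within some groups, and most arrays of the set of 11 are the second of their group. The main model used no pairing. The number of arrays limits the precision.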

Additional observations from a re-analysis of the deposited data

Results flagged for a closer look

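The change from 0 h to 8 h of LPS at 5 ng/ml differed between the strains for Polr1b and Rrp1b, by limma's test of the difference of changes. BALB/c minus C57BL/6 was 1.05 for Polr1b (SE 0.19, adjusted p = 0.0003) and 1.03 for Rrp1b (SE 0.23, adjusted p = 0.0029), with all arrays at 8 h below those at 0 h in both strains. Polr1b changed by -0.36 in BALB/c and -1.40 in C57BL/6, and Rrp1b by -1.22 and -2.25. Counted from 1 h the differences were 1.09 and 1.22. Strain, preparation and the state of the 0 h arrays cannot be told apart: the C57BL/6 0 h arrays read 10.63 and 10.45 for Nos2 against 3.54 and 3.78 in BALB/c.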

How the results depend on the processing

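No named value changed sign under any alternative run. The threshold counted here is that of the test over all times of a comparison, not of the test at the time named. Of 90 named values, between 82 and 90 kept their side of it under each alternative that used all of them. Of 1344 values with 1 array left out 1315 did, 26 lost and 3 gained the call. Whether each value kept its call at its own time was not counted. Nop58 at 2 h of 50 against 0.5 ng/ml, for example, had an adjusted p of 0.39 at that time and 9e-06 over all times. The replicate block kept all 90 (Rrp1b at 8 h of 50 ng/ml -2.36) and moved no count by 1.5 times: 18 genes lower at 8 h of IFN-beta and 20 at 50 ng/ml.

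Counts that moved by over 1.5 times were these. Genes passing by adjusted p alone between strains at 0 h were 2, but 1 with quantile normalisation or only the arrays compared, 4 with the array set as a covariate and 5 in the larger set. Genes lower at 8 h of 0.5 ng/ml were 4, but 7 without dim probe sets, 9 with the covariate, 8 in the larger set and 12 from 1 h. With only the arrays compared, which leaves fewer degrees of freedom, genes passing by adjusted p alone went from 13 to 8 for IFN-gamma, from 24 to 14 for LPS in BALB/c, from 22 to 14 for IFN-gamma against LPS and from 20 to 7 between strains under LPS, where those higher at 8 h went from 14 to 9. In the larger set, which holds no array of IFN-beta at 4 h, stricter calls went from 5 to 2 for IFN-beta and from 4 to 2 for IFN-beta against LPS. From 1 h they went from 2 to 0 for IFN-gamma, from 2 to 1 for LPS in BALB/c and from 1 to 2 at 0.5 ng/ml. From 1 h and without the 5 arrays that stand apart, an alternative chosen after seeing the data, the count at 0.5 ng/ml was also 2, with 10 genes lower at 8 h. The causes were not tested otherwise.

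With 1 array left out (the lone array of a group then takes the spread of the other groups), stricter calls ranged from 4 to 5 for IFN-beta, 1 to 2 for IFN-gamma, 1 to 2 for LPS in BALB/c, 4 to 4, 3 to 4 and 1 to 1 at 50, 5 and 0.5 ng/ml, 2 to 4 between interferons, 4 to 6 for IFN-beta and 1 to 2 for IFN-gamma against LPS, 3 to 4 for 50 against 0.5 ng/ml, 0 to 1 between strains under LPS and 0 to 2 for the strain difference of the response. Genes lower at 8 h ranged from 10 to 18 for IFN-beta, 5 to 9 for LPS in BALB/c, 15 to 20, 11 to 15 and 2 to 5 at the 3 doses, 11 to 14 between interferons and 16 to 21 for 50 against 0.5 ng/ml; genes lower at 4 h of IFN-beta from 10 to 14, and genes higher in BALB/c at 8 h from 7 to 14. By adjusted p alone 13 to 21 genes passed between strains under LPS, and 1 each time between strains at 0 h. The low of 5 for LPS in BALB/c came without the first 8 h array, the low of 2 at 0.5 ng/ml without the first C57BL/6 0 h array or the second 8 h array, and the others by over 1.5 times are named beside their results.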
